A study of Mus musculus with 6 samples.

Results

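The cytosolic ribosomal protein genes encode the protein components of the ribosome that translates nuclear-encoded mRNAs. They were taken as the probe sets whose only gene symbol in the platform annotation was Rpl or Rps followed by a number and an optional a, x or y, or was Rplp0, Rplp1, Rplp2 or Rpsa. The rule found 94 probe sets for 42 genes, 22 of the large and 20 of the small subunit, among 18193 genes with a probe set of their own. Another 110 probe sets named a ribosomal protein gene beside further symbols and were not members, so 27 ribosomal protein genes that were named only in this way, such as Rpl5, Rpl10, Rplp1 and Rps23, are not described here. Of the 42 genes, 15 were named in both ways.

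RNA was measured on 6 Affymetrix arrays, each of 1 sample of NIH3T3 cells, which are mouse fibroblasts that grow without limit in culture. All cells belonged to clone M, a single clone whose genome holds multiple insertions of lacO, the bacterial operator sequence bound by the lac repressor. In 3 tethered samples the insertion sat at the nuclear periphery, and in 3 untethered samples it was centrally disposed. Both groups therefore carried the insertions, and both grew in DMEM with 10% fetal calf serum to about 80% confluency. The protein used to tether the insertion, and what the untethered cells carried in its place, are not named in the sources used here. The comparison asks what tethering to the inner nuclear membrane does to transcription, per the design text, and 1 clone carries it.

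The ribosome has a large and a small subunit, and each ribosomal protein is present in about 1 copy per ribosome, apart from the stalk proteins. The genes lie scattered over the genome and their mRNAs are among the most abundant of a growing cell. In vertebrates the mRNAs of ribosomal proteins begin with a C followed by a run of pyrimidines, the terminal oligopyrimidine (TOP) tract. Through it the mTOR pathway and the RNA-binding protein Larp1 control the translation of these mRNAs. In mammalian cells free ribosomal proteins are degraded in the nucleus when their partners are missing, so that the amount of mRNA is only one of the levels at which their output is set.

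The members lay on 15 chromosomes. Promoter windows of RefSeq (assembly GRCm38.p6, from 250 bases before to 50 after each annotated start) were found for 37 of the 42 genes, in 43 windows. The letters shown next are motifs that were more frequent in these windows than in all windows, though none of those shown stood in most of them, and that the choice of genes did not use. The TOP tract was searched as a C at the annotated start with at least 4 further pyrimidines, on the gene's own strand. It stood in 8 of the 43 windows, or 18.6%, against 2.51% of all 32851 windows, in Rpl14, Rpl35, Rpl38, Rplp2, Rps10, Rps18, Rps27 and Rps6. A start annotated a base away from the true one would hide the tract. For 4 of these genes, 10 bases before and 20 bases from the annotated start are shown, with the tract in capitals. Rpl14 lies at chr9:120571507-120571536 (+), Rpl35 at chr2:39005112-39005141 (-), Rps10 at chr17:27635225-27635254 (-) and Rps6 at chr4:86857348-86857377 (-).
Rpl14: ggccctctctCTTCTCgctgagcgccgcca
Rpl35: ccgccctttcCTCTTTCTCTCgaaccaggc
Rps10: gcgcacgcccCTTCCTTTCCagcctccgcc
Rps6: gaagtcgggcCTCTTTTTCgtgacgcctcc

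Other motifs were searched on both strands of the same windows. CCGGAAG, the core bound by factors of the ETS family, stood in 41.9% of the members' windows against 8.86% of all windows. TCTCGCGA stood in 20.9% against 0.995%, and GGGCGG, the GC box, in 53.5% against 35.7%. Windows of the same gene can overlap, so that the same TCTCGCGA of Rps19 was counted in 2 windows. TATAAA was in 11.6% against 13.6%. CCGGAAG read on the other strand can overlap a TOP tract that runs CTTCC. The motifs were chosen after earlier results of these data were known, and a match is a description of the letters only. One example of each of the 2 motifs with the widest difference is shown per subunit, with the motif or its reverse complement in capitals. For CCGGAAG these are Rpl37 at chr15:5116579-5116608 (+) and Rps7 at chr12:28635949-28635978 (-). For TCTCGCGA they are Rpl12 at chr2:32961647-32961676 (+) and Rps6 at chr4:86857400-86857429 (-).
Rpl37: accaagacccgCCGGAAGtagtttcctggg
Rps7: tttcagaagagCTTCCGGtttccacccacc
Rpl12: gggccagcggtTCTCGCGAgagctgagctt
Rps6: ccgccggctgtTCTCGCGAgaacttagagc

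The deposited values are intensities, 1 per probe set and array. The array median lay between 482.472 and 490.786. No array was a copy of another. The 95th percentile differed between arrays by 16.2% and the 99th by 17.6%, but the 99.9th by only 1.71%, and the highest intensity of an array lay between 28896.9 and 29511.6. Of 10 fibroblast markers 9 passed the filter on dim probe sets (Fap did not), among them Vim, Fn1 and Col1a2. Of the defining markers of other cells, Ptprc, Cd68, Cdh5, Tek, Cdh1, Krt8 and Krt18 did not pass it, while Epcam, Cd14, Cd3e, Pecam1 and Kdr did. In the RNA-quality controls, the 5′ signal of 18S ribosomal RNA was 10.94, 10.48 and 10.79 on the log2 scale in tethered arrays 1, 2 and 3, against 12.06, 12.16 and 11.15 in untethered arrays 1, 2 and 3. The 5′ minus 3′ difference of the transferrin receptor control was -2.09, -1.67 and -1.55 in tethered arrays, against -2.81, -3.07 and -1.52 in untethered arrays. The part of either control in the values below was not tested.

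Each gene was read from its brightest probe set among those that named no other gene. For the 15 genes also named beside further symbols, a brighter probe set may have been left out. Genes called bright or dim below are so by the probe set read. Log2 intensities were compared between groups with limma over the 22518 probe sets whose mean lay above the median of all, with Benjamini-Hochberg adjustment over all of them. This left 41 of the 42 members (85 of their 94 probe sets): Rps16, a small-subunit protein, averaged 6.88 in tethered and 6.66 in untethered arrays and was not tested. Brightness mixes the amount of an mRNA with how well its probes respond, so no gene's level is set against another's. Separate cultures behind the arrays of a group are not stated in the labels. P-values thus reflect in part the spread among these arrays, which may be technical in part, and 3 arrays per group limit the precision. They also reflect a variance estimated over all tested probe sets, towards which limma draws that of each probe set. For members with little spread, SEs and intervals are therefore wider than their own arrays would give. Rpl19, for example, had an SD of 0.013 in tethered and 0.00021 in untethered arrays, but an SE of 0.056.

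No ribosomal protein gene passed the test between tethered and untethered cells. Of the 41 genes 0 passed an adjusted p of 0.05, where 0% of all tested probe sets did, and 0 had an unadjusted p under 0.05, where 2.38% did. The smallest adjusted p of the members was 0.9994. The median log2 fold change of the 41 genes was -0.011, against -0.016 over all tested probe sets, and 34 of the 41 lay within 0.05 of 0. Below 0 were 27 of the 41, or 65.9%, against 55.9% of all tested probe sets. This split moved with the scaling: 21 of 41 lay below 0 after quantile normalization and 22 of 41 after centring each array on its median, with median fold changes of -0.0012 and -0.0034. In RNA of whole cultures, fewer cells with an mRNA and less of it per cell cannot be told apart.

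How narrowly a difference in intensity is bounded varied with brightness. How closely intensity follows the amount of mRNA near the top of the scale was not tested. Of the 41 genes, 34 had a mean log2 intensity above 12, which put them above 99.06% of all probe sets on the array. Among these 34, the fold change ran from -0.083 (Rpl37) to 0.025 (Rps3). Their 95% intervals lay between -0.31 and 0.20, or 0.804-fold to 1.15-fold. The other 7, Rpl12, Rpl14, Rpl27a, Rpl39, Rps6, Rps25 and Rps27, had intervals that reached -0.76 at the lower end (Rpl12) and 0.52 at the upper end (Rpl14). For 30 of the 41 genes the whole interval lay within 0.2 of 0.

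**Figure D1:**
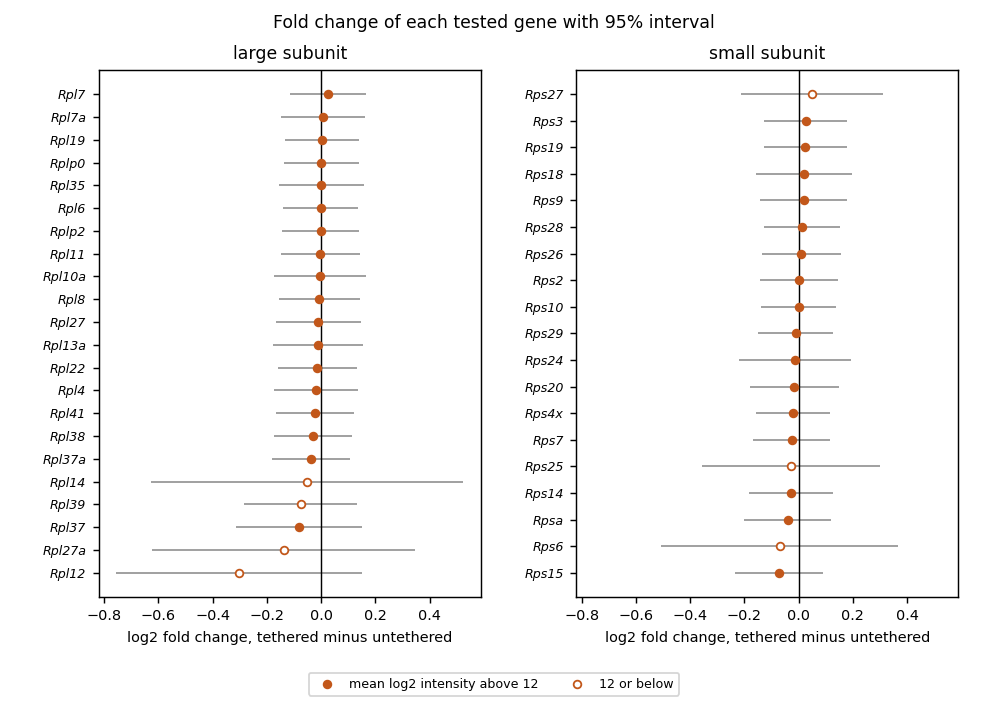
Log2 fold change of each tested gene, tethered minus untethered, with its 95% interval from limma, large subunit at the left and small subunit at the right; filled points mark genes with a mean log2 intensity above 12 and open points the others. Every interval crosses 0, and the wide ones belong to genes read from a dim probe set, such as Rpl12 (-0.30) and Rpl14 (-0.051).

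Large and small subunit genes gave nearly equal fold changes. The median log2 fold change was -0.011 in each subunit, with a difference of 0.00028 between them. In the large subunit 17 of 22 genes lay below 0, and in the small subunit 10 of 19. With quantile normalization the difference of the medians, large minus small, was -0.011. The median deviation from a gene's own 6-array mean was 0.0091, -0.019 and -0.0069 for the large subunit in tethered arrays 1, 2 and 3, against -0.0070, 0.022 and 0.0019 in untethered arrays. For the small subunit it was 0.036, -0.031 and -0.011 in tethered arrays, against 0.013, 0.0018 and -0.015 in untethered arrays. Large minus small was thus -0.027, 0.013 and 0.0043 in tethered arrays, against -0.020, 0.020 and 0.017 in untethered arrays. The large subunit stood lower than the small on both arrays numbered 1 and higher on the other 4, and the groups overlapped.

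**Figure D2:**
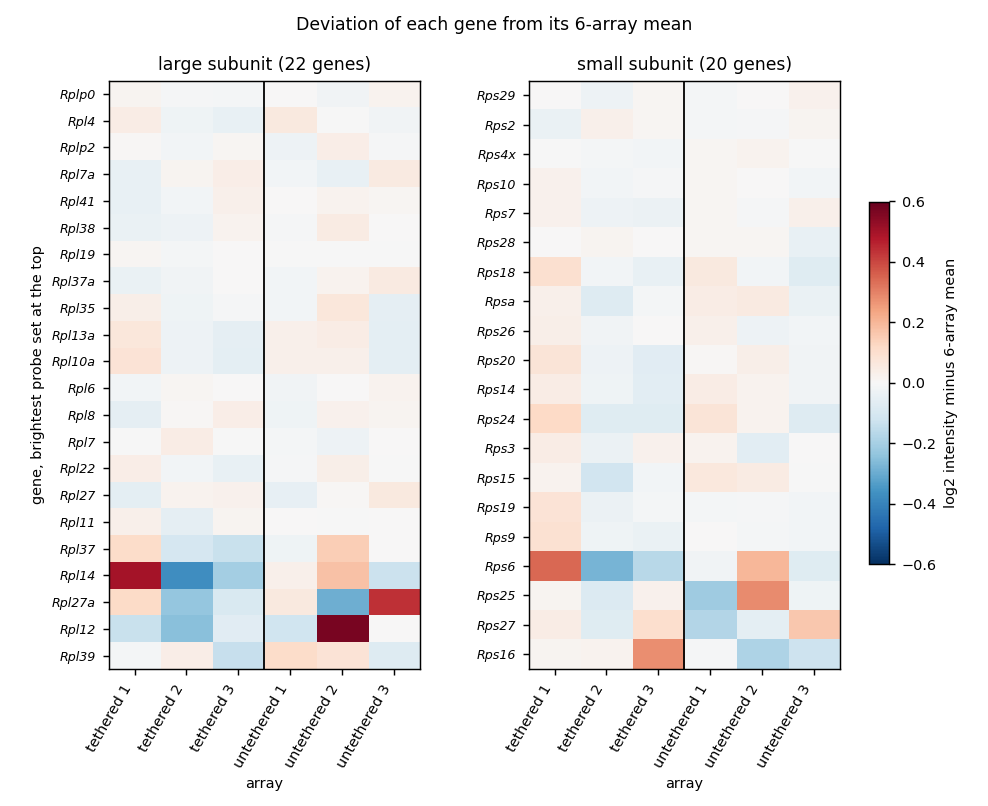
Deviation of the log2 intensity of each of the 42 genes from its own 6-array mean, with 1 column per array, tethered at the left, and genes ordered by brightness from the top. The bright genes are nearly colourless, and the strongest colours are Rpl14 on tethered array 1 (10.64) and Rpl12 on untethered array 2 (10.44).

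The stalk of the large subunit recruits the GTPases that drive translation. Rplp0, which anchors the stalk, read 14.58, 14.55 and 14.55 in tethered arrays, against 14.56, 14.54 and 14.58 in untethered arrays. The groups overlapped, and the range over all 6 arrays was 1.03-fold. Its log2 fold change was 0.00041 (SE 0.057, adjusted p = 0.9994 with limma) with an interval from 0.909-fold to 1.10-fold. Rplp2, an acidic protein that binds to Rplp0, read 14.42, 14.40 and 14.43 in tethered arrays, against 14.39, 14.46 and 14.41 in untethered arrays. Its groups overlapped as well.

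Rpl12 sits at the base of the same stalk and gave the largest fold change of the family. It read 9.74, 9.62 and 9.81 in tethered arrays, against 9.76, 10.44 and 9.88 in untethered arrays. A single array, untethered 2, stood apart, and the other 2 untethered arrays lay among or next to the tethered ones. The log2 fold change was -0.30 (SE 0.19, unadjusted p = 0.1544, limma), and the group means were 9.72 ± 0.093 in tethered and 10.03 ± 0.37 in untethered arrays (SD, n = 3). Without untethered array 2 the fold change was -0.094. Rpl10a, the protein of the other, L1 stalk, read 14.35, 14.24 and 14.21 in tethered arrays, against 14.30, 14.30 and 14.21 in untethered arrays, and its groups overlapped.

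Other large-subunit proteins line the tunnel through which the new polypeptide leaves. Rpl4 read 14.50, 14.43 and 14.41 in tethered arrays, against 14.51, 14.45 and 14.43 in untethered arrays. Rpl39, a very short protein encoded on the X chromosome, read 9.43, 9.49 and 9.31 in tethered arrays, against 9.56, 9.53 and 9.37 in untethered arrays. Rpl35, which surrounds the tunnel's exit, read 14.32, 14.26 and 14.28 in tethered arrays, against 14.27, 14.36 and 14.23 in untethered arrays. In each of the 3 genes the groups overlapped, and the fold changes were -0.019, -0.075 and 0.00040 in that order.

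Rpl14 was the member with the widest range over the arrays, 1.83-fold. It read 10.64, 9.77 and 9.94 in tethered arrays, against 10.17, 10.32 and 10.01 in untethered arrays. Tethered array 1 was the highest and the other 2 tethered arrays were the lowest, so the group means, 10.12 ± 0.46 and 10.17 ± 0.15 (SD, n = 3), hid opposite readings. Without tethered array 1 the log2 fold change was -0.31, with an unadjusted p of 0.0431 and an adjusted p of 0.7545 (limma). With all 6 arrays it was -0.051 (SE 0.24). Rpl27a, another large-subunit protein, read 10.00, 9.66 and 9.80 in tethered arrays, against 9.95, 9.60 and 10.33 in untethered arrays. Its lowest and highest arrays were both untethered.

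Among the remaining large-subunit genes, Rpl37 had the widest range of the bright ones, at 1.22-fold. It read 13.32, 13.11 and 13.08 in tethered arrays, against 13.19, 13.36 and 13.21 in untethered arrays, a log2 fold change of -0.083 (SE 0.095). The groups overlapped because tethered array 1 was the second highest. Rpl11, which with Rpl5 and the 5S ribosomal RNA binds the p53 inhibitor Mdm2, read 13.88, 13.80 and 13.87 in tethered arrays, against 13.86, 13.85 and 13.85 in untethered arrays. Rpl38, which in mice is needed for normal patterning of the axial skeleton, read 14.34, 14.35 and 14.41 in tethered arrays, against 14.38, 14.43 and 14.38 in untethered arrays. Neither gene's groups were apart. The highest large-subunit fold changes were 0.024 in Rpl7, 0.0062 in Rpl7a and 0.0038 in Rpl19, whose 6 arrays differed by 1.02-fold at most. Of the rest, Rpl6, Rpl8, Rpl13a, Rpl27 and Rpl37a ran from -0.038 (Rpl37a) to -0.0017 (Rpl6), and their groups overlapped.

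On the small subunit, Rps3 lies at the channel where the mRNA enters. It read 14.12, 14.04 and 14.11 in tethered arrays, against 14.10, 14.02 and 14.08 in untethered arrays. Rps15, in the head of the subunit, read 14.04, 13.91 and 14.01 in tethered arrays, against 14.08, 14.07 and 14.02 in untethered arrays. Its log2 fold change, -0.073 (SE 0.067, unadjusted p = 0.3149, limma), was the lowest of the small subunit, and the groups overlapped through tethered array 1. Rps18, also of the head, read 14.40, 14.29 and 14.26 in tethered arrays, against 14.37, 14.29 and 14.23 in untethered arrays. In Rps18 both arrays numbered 1 were the highest.

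Mutations of Rps19 and Rps24 cause Diamond-Blackfan anaemia in humans, and loss of Rps14 accounts for the anaemia of the human 5q- syndrome. Rps19 read 14.07, 13.96 and 13.98 in tethered arrays, against 13.98, 13.99 and 13.98 in untethered arrays. Rps24 read 14.24, 14.04 and 14.04 in tethered arrays, against 14.19, 14.14 and 14.04 in untethered arrays. Rps14 read 14.20, 14.14 and 14.09 in tethered arrays, against 14.20, 14.18 and 14.14 in untethered arrays. Tethered array 1 was the highest in Rps19 and Rps24 and level with untethered array 1 at the top in Rps14, and the groups of all 3 genes overlapped, with fold changes of 0.024, -0.015 and -0.029 in that order.

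Rps6 is the ribosomal protein that S6 kinase phosphorylates downstream of mTOR. It read 12.08, 11.46 and 11.57 in tethered arrays, against 11.72, 11.94 and 11.67 in untethered arrays. As in Rpl14, tethered array 1 was the highest and the other 2 tethered arrays were the lowest, and the log2 fold change was -0.071 (SE 0.18). Rps27, a zinc-finger protein, gave the highest fold change of the family, 0.049 (SE 0.11), from 9.22, 9.10 and 9.27 in tethered arrays, against 8.99, 9.11 and 9.33 in untethered arrays. Both ends of its range were untethered arrays. Rpsa, also known as the laminin receptor precursor, read 14.24, 14.13 and 14.20 in tethered arrays, against 14.26, 14.27 and 14.17 in untethered arrays, a fold change of -0.040 (SE 0.066). The other small-subunit genes, Rps2, Rps7, Rps9, Rps10, Rps20, Rps25, Rps26, Rps28 and Rps29, ran from -0.028 (Rps25) to 0.018 (Rps9), and their groups overlapped.

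Rps4x, encoded on the X chromosome, was the 1 gene of the 41 whose groups did not overlap. Over all tested probe sets 8.16% did not overlap, 3.85% with tethered lower and 4.3% with tethered higher. Rps4x had intensities of 20788, 20671 and 20614 in tethered arrays, against 21026, 21124 and 20802 in untethered arrays. The highest tethered array stood just under the lowest untethered one, and the log2 fold change was -0.020 (SE 0.056, unadjusted p = 0.7284, limma). With the mean of its 2 probe sets in place of the brighter one it was 0.042, but the other probe set (mean 8.70) did not pass the filter. Over the 85 tested probe sets of the members 3 did not overlap: that of Rps4x, and 1 each of Rpl7 and Rps10 in which tethered was higher.

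The same arrays can be read by replicate number, since each group has arrays numbered 1, 2 and 3. An F-test of the number, with group as a covariate (limma), called 5.16% of all tested probe sets, 1161 of 22518, at an adjusted p under 0.05. That count changed when 1 array was left out. It was 0 without tethered 3 or untethered 3, 561 without tethered 1, 2979 without tethered 2 and 2588 without untethered 2. Such a fit has only 1 array of the number concerned, and the cause of the changes was not tested. With all 6 arrays the F-test called 0 of the 41 ribosomal protein genes, whose smallest adjusted p was 0.3312 (Rpl27a), and 0 of their 85 probe sets. Without tethered array 2 it called 1 member, Rpl12 (adjusted p = 0.0405, limma). At an unadjusted p under 0.05 it gave 0 of the 41 genes and 3 of their 85 probe sets, against 22.6% of all tested probe sets. The 3 were dim probe sets of Rpl22, Rps3 and Rps24. The share of all tested probe sets covers every brightness, while 34 of the 41 genes lay above log2 12. In the small subunit 16 of 19 genes were lower on the arrays numbered 2 than on those numbered 1, and 15 of 19 were lower on those numbered 3 than on those numbered 1, with medians of -0.045 and -0.041. In the large subunit these counts were 10 and 11 of 22, with medians of 0.011 and 0.00075. The median of all tested probe sets was 0.020 for number 2 minus 1 and 0.030 for number 3 minus 1. The difference between subunits in this respect has no test, since the genes of an array are not replicates. Tethered array 1 was the highest array for 15 of the 41 genes, 6 of the large and 9 of the small subunit. For this count and the counts of genes lower than on the arrays numbered 1, the share over all tested probe sets was not counted.

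The spread between arrays was small for the bright members. Over the 6 arrays, the median SD of log2 intensity was 0.034 for the 34 bright genes and 0.131 for all tested probe sets. The widest range of a bright gene, read from its brightest probe set, was 1.22-fold. Some further probe sets of these genes above log2 12 ranged wider. A probe set of Rpl13a ranged 1.37-fold, against 1.09-fold for its brightest, and that of Rps9 at 12.75 ranged 1.31-fold, against 1.10-fold. Others ranged less, such as a probe set of Rpl7 at 1.03-fold, against 1.05-fold for its brightest. Other bright probe sets were compared at the same brightness. Between log2 13.5 and 14, the median SD was 0.0404 for 11 member probe sets, 0.0504 for 21 that named a ribosomal protein gene beside other symbols, and 0.145 for 91 of other genes. Between 14 and 14.2 it was 0.044 for 19 member probe sets, 0.0367 for 22 with several symbols and 0.101 for 28 of other genes. The gap narrowed above that: between 14.2 and 14.4 the median SD was 0.0329 for 26 member probe sets and 0.0425 for 17 of other genes, and between 14.4 and 15 it was 0.0193 for 5 and 0.0366 for 13. For other genes too, the spread was lower towards the top of the scale. How far the scale flattens there was not tested. Among the controls of that brightness, 3′ β-actin read 13.77, 14.49 and 14.51 in tethered arrays, against 14.01, 14.26 and 14.40 in untethered arrays. Its range over the 6 arrays was 0.74 on the log2 scale, and the ranges of the 3′, middle and 5′ Gapdh controls were 0.29, 0.28 and 0.27.

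**Figure D3:**
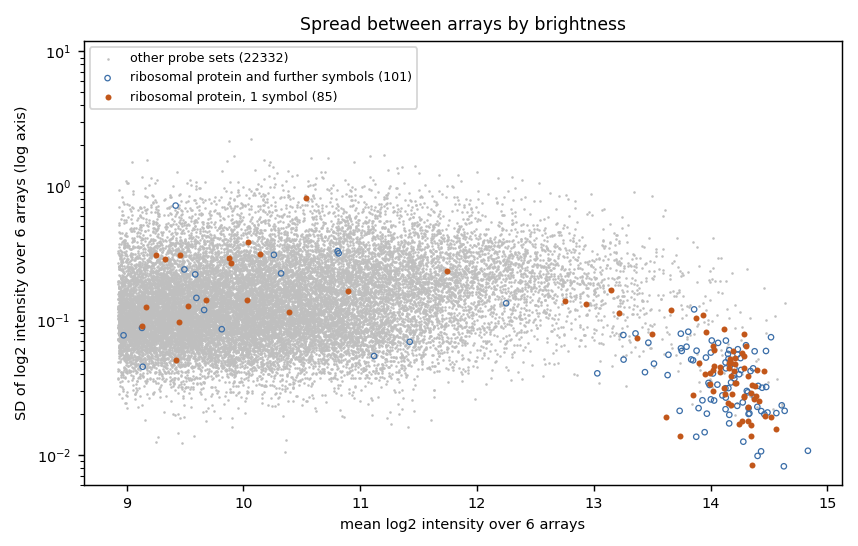
SD of log2 intensity over the 6 arrays (log axis) against mean log2 intensity for each tested probe set; filled points are member probe sets (85), open circles probe sets naming a ribosomal protein gene and further symbols (101), grey points all others (22332). Most member probe sets lie at the bright end with a low SD (median 0.0329 between 14.2 and 14.4), and the dim ones lie among the other probe sets.

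Below log2 12 the members' probe sets did not stand below other genes in spread. Between log2 10 and 11 the median SD was 0.237 for 6 member probe sets and 0.132 for 7069 of other genes. Between 12 and 13 it was 0.136 for 2 member probe sets and 0.204 for 1250 of other genes. Between 13 and 13.5 it was 0.096 for 4 and 0.173 for 253. Of the 19 members with several tested probe sets, 15 had fold changes within 0.1 of each other, and 7 had probe sets on both sides of 0. The widest disagreement was in Rpl27a, whose 2 probe sets gave -0.14 and 0.17, and their mean 0.015. In Rpl35 the 6 probe sets ran from -0.12 to 0.010, and in Rpl41, which encodes a very short basic protein, the 4 ran from -0.21 to -0.023.

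Rpl22, a protein that mouse cells can do without but that T cell development in mice requires, had 2 bright probe sets and a dim one. The brightest read 14.16, 14.10 and 14.07 in tethered arrays, against 14.11, 14.15 and 14.11 in untethered arrays. The dim one read 11.49, 9.84 and 9.84 in tethered arrays, against 11.43, 10.83 and 9.78 in untethered arrays. It was high on both arrays numbered 1, intermediate on untethered 2 and low on the other 3, a range of 3.28-fold, while the bright probe set's range was 1.06-fold. Its F-test of the replicate number gave the smallest adjusted p of the members' probe sets, 0.0723 (limma), and its log2 fold change between groups was -0.29 (SE 0.60). A dim probe set of Rps3 read 10.70, 9.56 and 9.93 in tethered arrays, against 10.21, 9.93 and 9.91 in untethered arrays, a range of 2.21-fold. Both dim probe sets of Rpl41 were highest on untethered array 2, at 9.85 and 9.79. Which parts of the transcripts these dim probe sets cover was not analysed here.

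**Figure D4:**
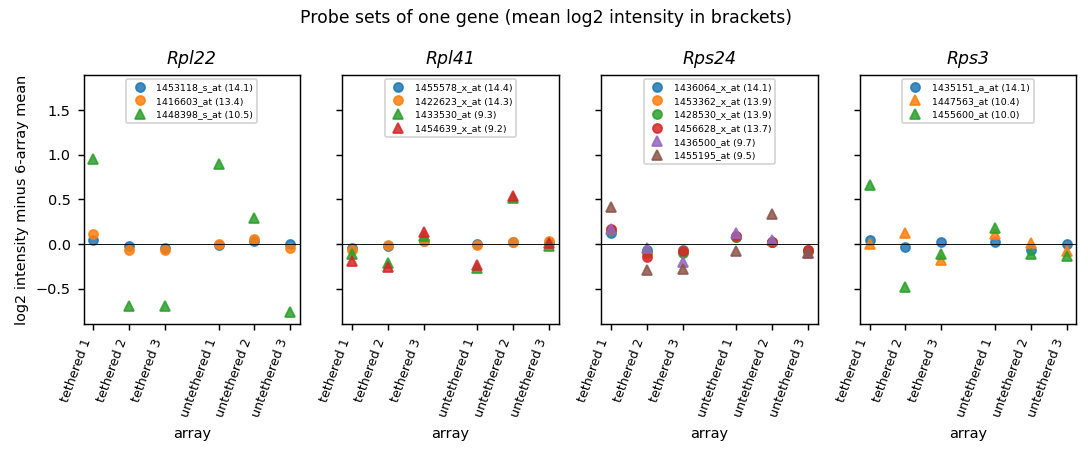
Log2 intensity minus the 6-array mean for each probe set of Rpl22, Rpl41, Rps24 and Rps3, with 1 position per array; circles are probe sets with a mean log2 intensity above 12, triangles dimmer ones, with the mean in brackets. The circles stay near 0, and the triangles spread, most of all the dim one of Rpl22 (3.28-fold from lowest to highest array).

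Genes that act with the ribosomal proteins were read in the same fit, from lists chosen with earlier results known. None was called between groups. Over all tested probe sets 55.9% lay below 0, and the counts above and below 0 of these lists were not made under other scalings. Of 7 related genes outside the symbol rule that have a probe set of their own, 5 were tested and all 5 had fold changes below 0. Among them Fau, whose product is split into a ubiquitin-like protein and the small-subunit protein eS30, gave -0.029 (SE 0.067). Rpl22l1, the paralog of Rpl22, gave -0.075 (SE 0.14), Rpl7l1, whose yeast homologue assists large-subunit assembly, gave -0.069 (SE 0.22), and Rpl39l, the paralog of Rpl39, gave -0.024 (SE 0.086). Of 14 translation factors and other genes with TOP mRNAs, 2 lay above and 12 below 0, with a median of -0.044. Eif4b, which assists the helicase that unwinds 5′ ends, gave -0.12 (SE 0.15), and Eif3e, a subunit of initiation factor 3, gave -0.044 (SE 0.066). Hnrnpa1, a splicing factor, gave -0.097 (SE 0.13), and the histone chaperone Nap1l1 gave 0.070 (SE 0.095). The fold change of each of these 4 was smaller than its error.

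Of 9 regulators of ribosomal protein synthesis, 3 lay above and 6 below 0. Larp1, which binds TOP mRNAs, gave -0.12 (SE 0.13). Tsc1 and Rheb, an inhibitor and an activator of mTOR complex 1, gave -0.11 (SE 0.072) and -0.099 (SE 0.14), and Rptor, a subunit of that complex, gave 0.053 (SE 0.073). Of 76 mitochondrial ribosomal protein genes, which serve the separate ribosome of mitochondria, 17 lay above and 59 below 0, with a median of -0.066. Mrpl47 gave -0.26 (SE 0.12), Mrps31 -0.22 (SE 0.11), Mrpl23 -0.16 (SE 0.10) and Mrps27 -0.16 (SE 0.092), with 0 of the 76 called. Of 27 ribosome biogenesis genes, which make and process ribosomal RNA and assemble the subunits, 11 lay above and 16 below 0. Nop58, a core protein of box C/D particles, gave 0.15 (SE 0.20), Gtpbp4, an assembly GTPase, gave -0.16 (SE 0.17), Pes1, a factor of large-subunit assembly, gave -0.11 (SE 0.16) and Ubtf, a transcription factor of RNA polymerase I, gave -0.069 (SE 0.083).

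By replicate number, the F-test called 4 of 27 biogenesis genes (14.8%) and 8 of 76 mitochondrial ribosomal protein genes (10.5%), against 5.16% of all tested probe sets and 0 of the 41 members. It called 0 of the 14 TOP genes, 0 of the 9 regulators and 0 of the 5 related genes. Those called were all lower on the arrays numbered 1. Nhp2, a protein of box H/ACA particles, read 12.20, 12.89 and 13.08 in tethered arrays, against 12.07, 13.02 and 13.03 in untethered arrays (adjusted p = 0.02402). Lyar, a nucleolar zinc-finger protein, read 9.89, 10.73 and 11.20 in tethered arrays, against 9.73, 11.13 and 11.13 in untethered arrays (adjusted p = 0.02909). Mrpl18, of the large mitochondrial subunit, read 10.09, 11.19 and 11.57 in tethered arrays, against 10.37, 11.25 and 11.62 in untethered arrays (adjusted p = 0.01396, limma). These genes were named for their calls after their values were seen. A difference in the share called between lists was not tested, and these calls too would be 0 without tethered 3 or untethered 3.

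Per array, the median deviation of the biogenesis genes was -0.17, -0.038 and 0.22 in tethered arrays, against -0.36, 0.23 and 0.14 in untethered arrays. For the mitochondrial ribosomal proteins it was -0.17, -0.058 and 0.15 in tethered arrays, against -0.21, 0.16 and 0.13 in untethered arrays. For the TOP genes it was 0.045, -0.059 and -0.0035 in tethered arrays, against 0.0094, 0.0095 and -0.0076 in untethered arrays. By these medians, both arrays numbered 1 were low for biogenesis and mitochondrial ribosomal proteins. The medians of the cytosolic large and small subunit genes and of the TOP genes stayed within 0.06 of 0 on every array. Single genes did not all do so: the median of the 7 dim members was -0.23 on tethered array 2 and 0.18 on untethered array 2.

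**Figure D5:**
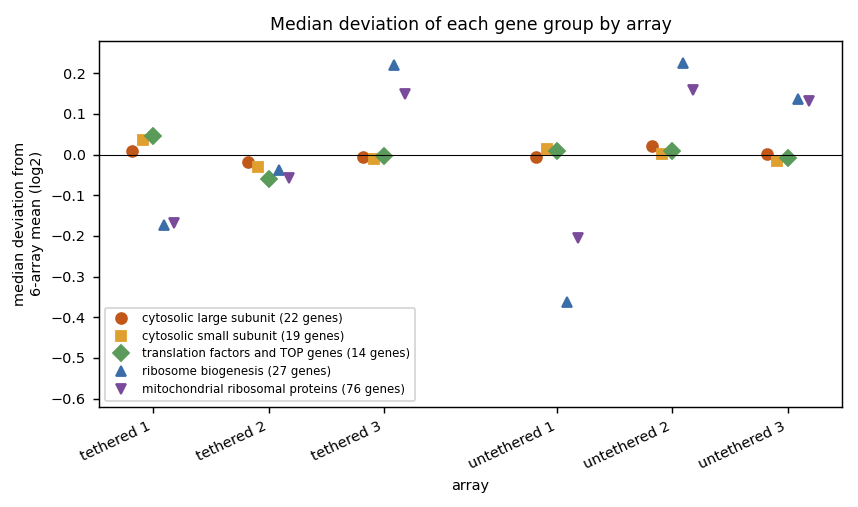
Median deviation from the 6-array mean (log2) of 5 gene groups on each array, tethered arrays at the left and untethered at the right. Cytosolic large and small subunit genes and TOP genes lie near 0, and the biogenesis and mitochondrial groups range from -0.36 to 0.23.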

How the data were processed

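Biotin-labelled total RNA of 6 samples was hybridised to Affymetrix arrays, per the labels. The deposited values are 1 intensity per probe set and array, on a linear scale, as processed by the authors. For the summarising of probes and the scaling of arrays, the method was not given in the sources used here, and the values were used without further scaling. Of 45101 probe sets 64 were controls, and 45037 were kept. Symbols came from the platform annotation, updated through the gene identifier. Intensities under 16 were set to 16 and log2 taken. The 22518 probe sets with a mean above the median were fitted with limma 3.58.1 in R 4.3.3 (lmFit and eBayes), with the group as the only term for tethered minus untethered, and with group and replicate number for the F-test. Tests were two-sided, P-values were adjusted by Benjamini-Hochberg over all probe sets tested, and intervals are at 95%. The procedure was tested on simulated data with independent noise on each array, which do not hold the correlation between same-numbered arrays. Named in the text were, for each subunit, up to 4 genes of lowest p per direction and by F-test, a list of well-studied members, the 4 with the widest range over arrays or over probe sets, and up to 4 genes of each related list. Rpl4 and the genes called in the F-test were added after their values were seen. The members and lists were chosen with earlier results of these data known. Alternatives changed the scaling, the floor, the filter, the probe set per gene, the replicate block and the arrays used.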

Additional observations from a re-analysis of the deposited data

How the results depend on the processing

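The count of ribosomal protein genes called between groups was 0 under each alternative run (limma), with 0 at an unadjusted p under 0.05, or 1, Rpl14, without tethered 1, and their median log2 fold change stayed within the spread of the arrays, from -0.022 to -0.00016 when 1 array was left out. Deviations from the group means correlated between same-numbered arrays at 0.71 for number 1, 0.075 for number 2 and 0.711 for number 3. The numbers were not taken as pairs because no method in the sources used here states a pairing, and number 2 correlated little. What the same-numbered arrays of numbers 1 and 3 shared therefore stayed in the error of the main fit. With the replicate number as a block, 0 probe sets and 0 members were called, and 1232 probe sets had an unadjusted p under 0.05, against 536 without it. Calls by replicate number over the whole array were 645 with no filter on dim probe sets, where 45037 were tested, against 1161. Leaving out 1 array gave 0 to 2979 such calls: 0 without tethered 3 or untethered 3, 561 without tethered 1, 2588 without untethered 2 and 2979 without tethered 2. It gave 0 or 1 members, the 1 being Rpl12 without tethered 2 (adjusted p = 0.0405, limma), and the cause was not tested.

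Signs of fold changes near 0 turned under some alternatives, with no value called. With quantile normalization Rpl10a gave 0.0035, Rplp2 0.0039 and Rpl11 0.027, and with centred medians 0.0040, 0.0062 and 0.0049. With the mean of all probe sets, also those that did not pass the filter, Rpl27a gave 0.015, Rps9 -0.027, Rps18 -0.00071, Rps4x 0.042, Rpl35 -0.022 and Ubtf 0.095. Without probe sets ending in _x_at or _s_at, which are the brightest for 15 of 42 members, Rps9 gave -0.062. Without both arrays numbered 1, Rpl19 gave -0.0020, Rplp0 -0.0075, Rps27 -0.039, Rps19 -0.010, Rps9 -0.019 and Rpl35 -0.025. Leaving out 1 array turned the sign in these ranges. Fau ran from -0.062 to 0.0038, Nop58 ran from -0.057 to 0.27, Rpl10a ran from -0.046 to 0.024, Rpl11 ran from -0.018 to 0.022, Rpl14 ran from -0.31 to 0.12, Rpl19 ran from -0.0019 to 0.011. Rpl22 ran from -0.038 to 0.0041, Rpl22l1 ran from -0.23 to 0.019, Rpl27a ran from -0.32 to 0.048, Rpl35 ran from -0.026 to 0.035, Rpl39l ran from -0.090 to 0.023, Rpl7a ran from -0.015 to 0.035. Rpl7l1 ran from -0.25 to 0.099, Rplp0 ran from -0.0096 to 0.0099, Rplp2 ran from -0.017 to 0.018, Rps18 ran from -0.022 to 0.055, Rps19 ran from -0.0095 to 0.047, Rps24 ran from -0.080 to 0.020. Rps27 ran from -0.028 to 0.14, Rps3 ran from -0.00011 to 0.049, Rps6 ran from -0.26 to 0.052, Rps9 ran from -0.024 to 0.042.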
